A study of Mus musculus with 20 samples.

Results

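Splenic CD4+ and CD8+ T cells that lack the DNA methyltransferase *Dnmt3a* were compared with each other, animal by animal, to see which differences between the helper and the cytotoxic lineage remained without the enzyme. RNA was measured in 8 libraries, a CD4+ and a CD8+ library from each of 4 KO animals, out of 20 in the series. The KO donors carried *Dnmt3a* alleles with 2 loxP sites and a CD4-Cre transgene, in which Cre is driven by *Cd4* sequences that are active before thymocytes split into the 2 lineages, on the B6 background. WT donors, which serve here only as the reference for the same subset difference, were littermates without the deletion and gave a CD4+ and a CD8+ library from each of 4 animals. All cells came from B6 donors of 6 to 12 weeks of age and were transplanted into B6D2F1 (F1) recipients of 8 to 12 weeks. Per the study, recipients were irradiated before they received donor bone marrow and purified T cells. In this parent-into-F1 graft donor T cells attack the host (graft-versus-host disease). The cells were sorted from the recipients' spleens by flow cytometry on day +10. Of the 17101 genes in the table, 12189 averaged 10 or more normalized counts in the 8 KO libraries and are the genes compared. The lowest mean kept was 10.005 and the highest left out was 9.999, and 3933 further genes had reads but fell under the limit. Nothing in the labels says whether an animal number stands for the donor or the recipient, so p values measure the spread between these numbered pairs.

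CD4+ T cells recognise peptides on MHC class II molecules and act mainly by cytokines and contact help, whereas CD8+ T cells recognise MHC class I and kill target cells with perforin and granzymes. The choice is made in the thymus, where ThPOK (encoded by *Zbtb7b*) holds cells in the CD4 lineage and *Runx3*, with its partner CBFβ, silences *Cd4* and *Zbtb7b* and sustains the CD8 program. DNMT3A places new methyl groups on DNA, a mark that commonly accompanies stable silencing of genes of an alternative fate. The coreceptor genes themselves are classical examples of lineage-restricted expression.

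A normalized count here is the number of reads of a gene divided by the size factor of its library. The 8 KO libraries held 39307777 to 46604070 reads on genes and the 8 WT libraries 37547651 to 46771383. Differences are CD4 minus CD8 within an animal on the log2(normalized count + 1) scale, given ± SE with n = 4 pairs, and a positive value means higher in CD4+ cells. A gene was called when its adjusted p from limma, fitted across all genes with the animal as a block, was under 0.05.

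*Dnmt3a* (chr12:3801559-3914443 in GRCm38.p6, as are all positions here) is the targeted gene. Its normalized counts were 1658, 1628, 1639.6 and 1385 in the KO CD4+ libraries of animals 1 to 4 and 2007, 1287, 1515 and 1664 in their CD8+ libraries. In WT it was 4690 to 5171 for CD4+ libraries and 3542 to 3812 for CD8+ libraries. Neither subset overlapped between the genotypes, and the transcript of the deleted gene was still counted in all of them. Between the KO subsets the difference was -0.022 ± 0.11 (95% interval -0.28 to 0.23, limma adjusted p = 0.922).

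The CD4+ library of KO animal 1 stood apart. Its *Cd8a* count was 3771, against 78.3 to 227 in the other KO CD4+ libraries, which is 6.50% of the level in the CD8+ library of the same animal. For *Cd8b1* the share was 9.75% and for *Smyd1*, a neighbour of *Cd8b1* also known from cytotoxic T cells, it was 6.41%. In KO animals 2, 3 and 4 these shares were 0.251%, 0.114% and 0.461% for *Cd8a* and 1.18%, 1.38% and 2.22% for *Cd8b1*. In the opposite direction, *Cd4* in the KO CD8+ libraries was 0.469% to 0.749% of the level in the CD4+ library of the same animal. Values without animal 1 are given for the main CD8 genes. Among markers of other cell types, the highest values of *Ms4a1* and *Pax5* of B cells in any KO library were 4.39 and 1.91, and that of *Ncr1* of NK cells was 4.49. The B cell genes above the limit for testing were *Cd79a* and *Cd22*, called higher in KO CD4+ cells (1.32 and 1.49), and *Cd79b*, called higher in KO CD8+ cells (-1.23). Summed B cell markers ran from 1664 to 2166 in KO CD4+ and from 1733 to 2751 in KO CD8+ libraries. Myeloid markers ran from 2972 to 6218 and from 5100 to 8880, and NK cell markers from 631 to 1901 and from 2110 to 4792. Of the gamma delta and iNKT markers, *Cd163l1* was called higher in KO CD4+ cells (1.27) and *Zbtb16* higher in KO CD8+ cells (-2.37). The summed neutrophil markers ran from 5.89 to 4275 in KO CD4+ and from 12.4 to 2765 in KO CD8+ libraries, and the pancreatic acinar markers from 1138 to 7556 and from 866 to 8053. Both lists varied widely between animals, and 0 of 8 neutrophil and 0 of 9 acinar genes tested were called between the subsets by limma. The share called over all genes tested was 18.9%.

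The 2 lineages remained far apart without *Dnmt3a*. Of the 12189 genes, 2305 were called (18.9%), 1247 higher in CD4+ cells (10.2%) and 1058 higher in CD8+ cells (8.68%), and 703 of the calls exceeded a difference of 1 log2 unit. The unadjusted p was under 0.05 for 3857 genes, and the groups did not overlap for 1237 genes (10.1%). The median difference over all genes tested was -0.0080. In WT cells, 6134 of 12559 genes were called (48.8%), 3063 of them higher in CD4+ cells. The median SD of the 4 within-animal differences, over genes with a mean above 1000, was 0.144 in KO and 0.0968 in WT animals, so the KO comparison had the wider error. With the pairing by animal left out of the fit the KO count was 514, without animal 1 it was 1995, of which 1771 were among the 2305, and without animal 3 it was 1446.

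Differences seen in WT cells mostly kept their sign in KO cells. Among 12022 genes tested in both genotypes, 6008 were called in WT, and 5392 of these (89.7%) had the same sign in KO. Of 6014 genes not called in WT, 62.7% shared the sign. Of the WT calls, 2097 were also called in KO in the same direction (34.9% of the WT calls and 91.5% of the KO calls), and 14 were called in the opposite direction. Among 1119 genes with a WT difference above 1 log2 unit, 1065 had the same sign in KO, and the KO difference was 0.778 of the WT difference in the median gene (interquartile range 0.543 to 1.01). This median was 0.822 for the 670 of these genes higher in CD4+ cells and 0.709 for the 449 higher in CD8+ cells. For each KO animal alone it was 0.686, 0.834, 0.856 and 0.724 in animals 1 to 4, while each WT animal, read against genes chosen in the other WT animals, gave 0.869 to 1.04. When genes were chosen in KO instead, the 690 with a difference above 1 log2 unit had a median WT difference of 0.992 of the KO value. Every KO animal gave a value below every WT animal. Across the 12022 genes, the KO and WT differences had Pearson's r = 0.817, a description over genes that share libraries and are not independent.

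**Figure D1:**
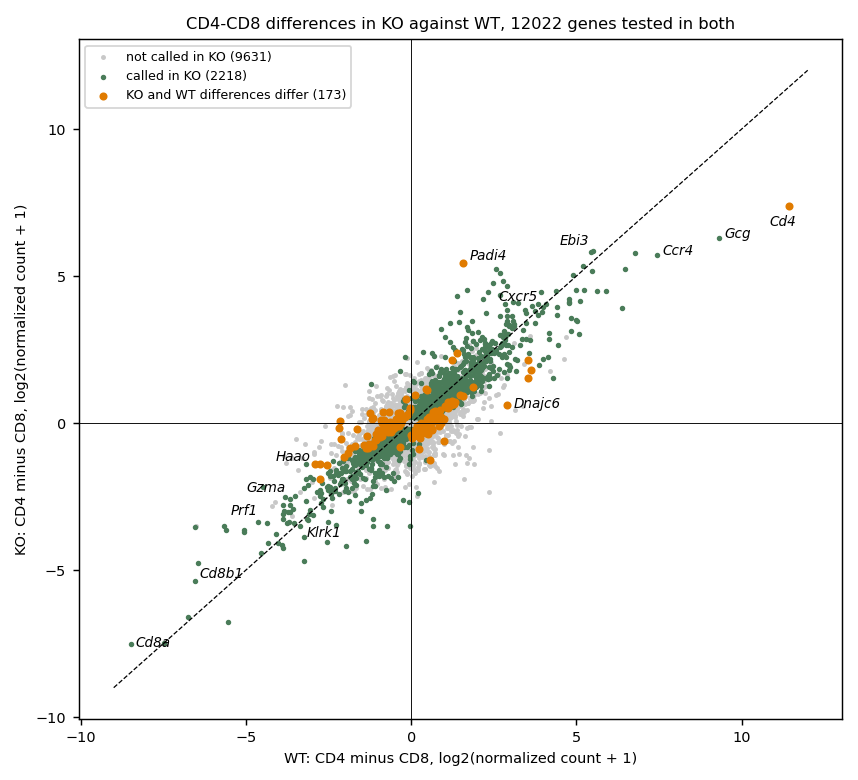
CD4 minus CD8 difference of each gene in KO (vertical axis) against WT (horizontal axis), both as log2(normalized count + 1), for 12022 genes tested in both genotypes. Green points were called in KO, orange points are the 173 genes whose KO and WT differences differed by limma, and the dashed line marks equal values. *Cd4* lies at 7.40 in KO and 11.45 in WT, below the line.

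The coreceptor genes separated the subsets in every animal. *Cd4* (chr6:124864693-124888247), whose product binds MHC class II, had normalized counts of 54510.5, 44804, 74386 and 72645 in KO CD4+ cells of animals 1 to 4 and 302, 336, 349 and 458 in KO CD8+ cells. The groups did not overlap, and the difference was 7.40 ± 0.10 (limma adjusted p = 5.69e-10). In WT CD8+ cells *Cd4* was 12.2, 79.6, 9.88 and 28.7 in animals 2, 3, 5 and 6, so each KO CD8+ library held more *Cd4* than each WT CD8+ library, while the WT CD4+ libraries ranged from 64652 to 72567. The WT difference was 11.45 ± 0.34, and the KO minus the WT difference was -4.05 ± 0.49 (limma interaction, adjusted p = 0.00425). KO CD4+CD8+ cells, a sorted population of their own, had 8758 to 15351. The part of *Cd4*-bearing cells in the CD8+ sort was not tested, and fewer cells of a type cannot be told apart from less RNA per cell in bulk libraries.

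*Cd8a* (chr6:71373427-71379171) and *Cd8b1* (chr6:71322788-71337492) encode the chains of the CD8 coreceptor. *Cd8a* reached 58009, 45783, 68740.3 and 49351 in KO CD8+ cells, against 3771, 115, 78.3 and 227 in KO CD4+ cells, a difference of -7.52 ± 0.72 (limma adjusted p = 1.55e-04) with animal 1 and -8.71 (adjusted p = 1.28e-05) without it. *Cd8b1* was 46313, 46606, 44901 and 35472 in KO CD8+ and 4515, 549.9, 621 and 788 in KO CD4+ cells, a difference of -5.36 ± 0.40 with and -6.02 without animal 1. Neither gene overlapped between the groups, and among the KO CD4+ libraries that of animal 1 was highest for both. *Smyd1* (chr6:71213940-71262281), a methyltransferase of heart and skeletal muscle whose older name Bop refers to its place opposite the CD8b gene, had the same pattern, at 760.2, 817, 804 and 876 in KO CD8+ and 48.8, 7.86, 0 and 0 in KO CD4+ cells, a difference of -7.47 ± 0.85 with and -8.65 without animal 1. The KO and WT differences of *Cd8a*, *Cd8b1* and *Smyd1* did not differ by limma (adjusted p = 0.719, 0.288 and 0.999).

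**Figure D2:**
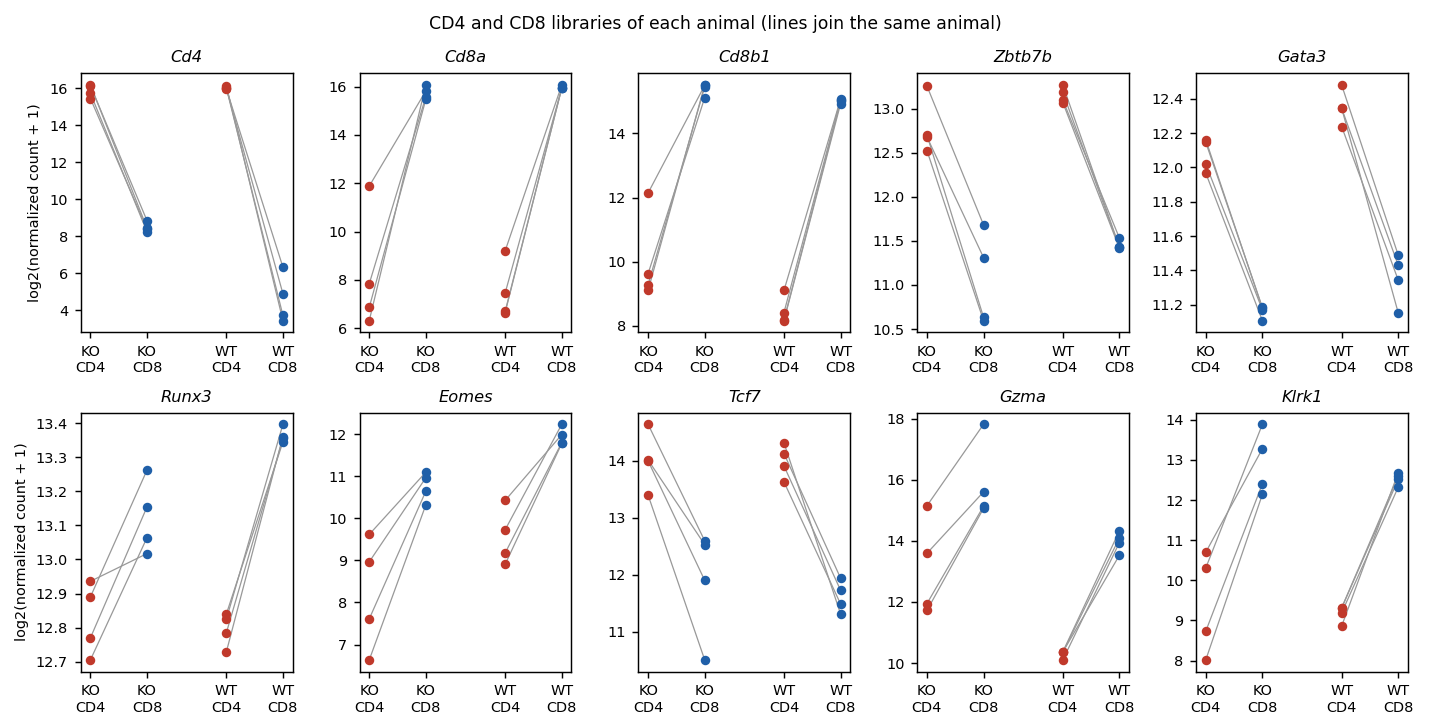
Level of 10 lineage genes in each library as log2(normalized count + 1), with grey lines joining the CD4+ (red) and CD8+ (blue) library of the same animal, for 4 KO and 4 WT animals. The vertical axis of each panel has its own range and does not start at 0. KO animal 1 is the single high red point in the *Cd8a* and *Cd8b1* panels, at 3771 and 4515 normalized counts.

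The lineage-setting factors differed in the direction seen in WT. *Zbtb7b* was 5893, 6660.2, 9788 and 6558 in KO CD4+ cells and 1546, 1587, 3283 and 2539 in KO CD8+ cells of animals 1 to 4. It was higher in the CD4+ library of every animal, by 1.74 ± 0.11 in KO (limma adjusted p = 2.33e-05) and by 1.70 ± 0.050 in WT. *Gata3*, which acts before *Zbtb7b* in CD4 commitment, was higher in CD4+ cells by 0.91 ± 0.064 in KO and 1.00 ± 0.054 in WT. *Runx3* differed little in level, at 7835, 7590.1, 6679 and 6984 in KO CD4+ and 8289.8, 9824, 8563 and 9116 in KO CD8+ cells. It was higher in the CD8+ library of all 4 KO animals, with a difference of -0.30 ± 0.068 (limma adjusted p = 0.0140), against -0.57 ± 0.041 in WT. The 4 KO differences of *Runx3* lay above the 4 WT differences (2-sided exact permutation test over the 8 animals, p = 0.0286, the smallest that 4 against 4 allow), but the interaction did not pass across all genes (limma adjusted p = 0.113). *Eomes*, a T-box factor of cytotoxic and memory CD8+ cells, was 499, 785, 98.4 and 194 in KO CD4+ and 2001, 2193, 1279.7 and 1603 in KO CD8+ cells, a difference of -2.55 ± 0.30 with and -2.74 without animal 1.

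Because RUNX3 is known to act on *Zbtb7b* and the coreceptor genes, their upstream sequences are shown with the letters of the RUNX core. RefSeq starts in GRCm38.p6 gave 2 windows each for *Zbtb7b* and *Runx3* and 1 for *Cd8a*. *Cd4* and *Cd8b1* are named only. Each window is the 250 bases before the start, written 5′ to 3′ on the strand of the gene, and capitals mark the RUNX core TGTGGT or, for the other strand, ACCACA. The *Zbtb7b* windows lie at chr3:89393379-89393628 and chr3:89387672-89387921 (minus strand), the *Runx3* windows at chr4:135120395-135120644 and chr4:135152295-135152544 (plus strand), and the *Cd8a* window at chr6:71373177-71373426 (plus strand).
Zbtb7b, first listed start: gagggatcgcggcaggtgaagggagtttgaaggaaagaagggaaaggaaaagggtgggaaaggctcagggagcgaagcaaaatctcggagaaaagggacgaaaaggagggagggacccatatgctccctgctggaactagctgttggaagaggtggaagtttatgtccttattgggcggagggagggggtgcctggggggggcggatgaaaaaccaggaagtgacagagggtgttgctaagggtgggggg
Zbtb7b, second listed start: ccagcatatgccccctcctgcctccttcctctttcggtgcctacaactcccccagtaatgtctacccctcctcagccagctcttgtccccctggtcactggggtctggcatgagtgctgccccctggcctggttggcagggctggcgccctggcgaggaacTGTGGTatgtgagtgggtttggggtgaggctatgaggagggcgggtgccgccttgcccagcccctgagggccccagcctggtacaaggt
Runx3, first listed start: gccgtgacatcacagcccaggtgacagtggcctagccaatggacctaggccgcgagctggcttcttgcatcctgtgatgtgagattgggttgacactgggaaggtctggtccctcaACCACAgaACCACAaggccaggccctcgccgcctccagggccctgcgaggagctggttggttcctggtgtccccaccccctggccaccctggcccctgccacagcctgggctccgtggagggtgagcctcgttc
Runx3, second listed start: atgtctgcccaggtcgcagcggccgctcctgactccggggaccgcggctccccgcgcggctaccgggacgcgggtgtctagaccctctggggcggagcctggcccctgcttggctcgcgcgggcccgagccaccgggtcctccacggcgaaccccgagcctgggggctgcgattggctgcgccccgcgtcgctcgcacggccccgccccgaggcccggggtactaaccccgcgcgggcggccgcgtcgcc
Cd8a: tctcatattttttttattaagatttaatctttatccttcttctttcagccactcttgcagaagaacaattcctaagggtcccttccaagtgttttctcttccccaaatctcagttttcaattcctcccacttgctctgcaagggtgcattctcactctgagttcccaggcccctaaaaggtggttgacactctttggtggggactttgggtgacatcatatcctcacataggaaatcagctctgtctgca

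The core occurred once in the second *Zbtb7b* window, 89 bases before the start, and at 134 and 126 bases before the first *Runx3* start, where the copies lie side by side without overlap. No match to these letters was in the other 3 windows. Of 32851 windows of the same length in the table, 14.05% held the core. Counted per gene over all its listed starts, the share was 13.51% of 9222 genes tested here that have a window. It was 16.01% of 943 genes called higher in KO CD4+ cells and 15.38% of 826 called higher in KO CD8+ cells. With a difference above 1 log2 unit the shares were 17.61% of 335 and 20.21% of 188 genes. A match is a description of letters, and binding was not measured.

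Among 18 further regulators of T cell identity, 5 were called higher in KO CD4+ cells and 1 higher in KO CD8+ cells, with a median difference of 0.045. Over all genes tested, 10.2% were called higher in CD4+ and 8.68% higher in CD8+ cells. Without the block by animal, 2 and 0 of the regulators were called. *Tcf7* (TCF-1), a factor of stem-like and helper T cells, was 16548, 10798, 16373 and 25537 in KO CD4+ and 5919, 1458, 3834 and 6199 in KO CD8+ cells. Animal 2 was lowest in both subsets, the groups did not overlap, and the difference was 2.13 ± 0.17 against 2.38 ± 0.11 in WT. *Satb1*, a chromatin organizer of T cells, was higher in CD4+ cells by 0.82 ± 0.16, *Runx1* by 0.59 ± 0.094, *Tcf12* by 0.41 ± 0.070 and *Lef1*, the relative of *Tcf7*, by 0.35 ± 0.087. *Tox*, a factor of thymic CD4 development and of exhausted CD8+ cells, was the 1 gene of this list higher in CD8+ cells, at -0.66 ± 0.18 (limma adjusted p = 0.0335). Its groups overlapped, with 4657, 2429, 5538 and 5124 in CD4+ and 8284, 6156, 8473 and 4684 in CD8+ libraries, and animal 4 had more in its CD4+ library.

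The largest differences past the threshold with no overlap between the groups included genes outside the classical lineage lists. After *Cd4*, those highest in KO CD4+ cells were *Gcg*, which encodes proglucagon, *Ebi3*, a shared subunit of the cytokines IL-27 and IL-35, *Zscan10*, *A630023P12Rik*, *Ccr4*, the receptor for CCL17 and CCL22, *Wisp1*, *Ces2c*, *Ramp3*, an accessory protein of calcitonin-family receptors, and *Plcb4*. *Gcg* was 309, 152, 880.4 and 219 in KO CD4+ and 13.9, 0, 15.7 and 0 in KO CD8+ cells. In WT CD4+ cells *Gcg* was 2042, 1689, 5576 and 3183, above every KO library. The KO difference of *Gcg* was 6.28 ± 0.57 and the WT difference 9.32 ± 0.42, and the interaction did not pass (limma adjusted p = 0.0974). *Ebi3* was 153, 119, 665 and 522 against 0, 4.12, 22.4 and 3.79, and *Ccr4* 316, 413, 307 and 327 against 12.8, 0, 12.3 and 8.52. The CD8+ levels of these genes were near 0, so their folds rest on few reads. For the remaining 6 genes the KO difference ran from 4.83 for *Plcb4* to 5.82 for *Zscan10*, and all 9 had the same sign in WT, from 2.78 for *Plcb4* to 9.32 for *Gcg*.

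Among the genes highest in KO CD8+ cells, after *Cd8a*, *Smyd1* and *Cd8b1*, were *Gm156*, *Calcb*, which encodes a calcitonin gene-related peptide, *Adgrg1* (GPR56), an adhesion receptor found on cytotoxic lymphocytes, *Pald1*, *Cd244* (2B4), a SLAM-family receptor, and *Klrk1* (NKG2D), which recognises stress ligands. *Gm156* was 203, 661, 1059.9 and 165 in KO CD8+ and 0, 1.96, 3.82 and 10.98 in KO CD4+ cells. *Calcb* was listed at 0 in all 4 KO CD4+ libraries and at 58.9, 29.9, 579.9 and 82.4 in KO CD8+ cells, which is at least 62.7-fold higher when 3 reads per library are taken as the limit. This bound rests on animal 3, and from the mean of the other 3 CD8+ libraries it is at least 19.1-fold. *Klrk1* was 9939, 15169.8, 5418 and 4518 against 1662, 1267, 424 and 258, a difference of -3.49 ± 0.20 in KO and -3.36 ± 0.093 in WT. *Adgrg1* (chr8:94974756-95014208) was 1071, 1102, 2891 and 1578 against 114, 25.5, 133 and 159, a difference of -4.08 ± 0.32 in KO and -4.34 ± 0.090 in WT. Without animal 1 the differences of *Klrk1* and *Adgrg1* were -3.79 and -4.37. None of these genes overlapped between the KO groups, and all had the same sign in WT.

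The corresponding ranking in WT added further genes. *Col16a1*, a collagen, differed by 3.90 ± 0.33 in KO and 6.38 ± 0.41 in WT, and *Ces2d-ps*, a pseudogene beside *Ces2c* on the same chromosome whose reads may be split with its neighbour's, by 4.54 ± 0.70 and 5.23 ± 0.36. *Glp1r*, the receptor for a proglucagon product, was 44.97, 27.8, 81.9 and 35.04 in KO CD8+ and 157 to 307 in WT CD8+ cells, with differences of -3.53 ± 0.66 in KO and -6.53 ± 0.45 in WT. The interactions of *Col16a1*, *Ces2d-ps* and *Glp1r* did not pass (limma adjusted p = 0.0879, 0.766 and 0.0860). *Klra7*, *Tmprss6* and *Mrc2* differed by -4.76, -3.49 and -3.64 in KO and all passed the threshold, whereas *D430041D05Rik*, which was listed at 0 in every KO CD4+ library, did not pass (limma adjusted p = 0.0933).

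Genes of helper identity were higher in KO CD4+ cells. All 12 measured genes of the CD4 identity list were called higher in KO CD4+ cells, as in WT, where 12 were, with a median difference of 2.18 in KO and 2.20 in WT. *Icos*, a costimulator of helper cells, was 17401, 22035, 29159 and 30873 in KO CD4+ and 6665, 4495, 8644 and 9474 in KO CD8+ cells, a difference of 1.78 ± 0.12. *Tnfrsf4* (OX40) was 3568, 2995, 9691 and 7418 against 523, 164, 1499.6 and 966, with animals 3 and 4 highest in both subsets, and differed by 3.15 ± 0.21. *Tnfsf8* (CD30 ligand) differed by 2.58 ± 0.25, *Il6ra* by 3.07 ± 0.36, *Trat1*, a T cell receptor-associated adaptor, by 3.56 ± 0.66, and *Ctla4* by 0.99 ± 0.14. *Izumo1r* (folate receptor 4) was 1799, 786, 5049 and 5562 in KO CD4+ cells, against 264, 80.3, 776 and 579 in KO CD8+ cells. *Cd28* and *Cd5*, found on all T cells, differed least, by 0.78 ± 0.067 and 0.90 ± 0.053. *Cd40lg* was not analysed here. Without animal 1 all 12 were again called, and 8 were without the block by animal. The share of all genes called higher in CD4+ cells was 10.2%.

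Most follicular helper genes were higher in KO CD4+ cells. Of 14 tested, 11 were called higher in KO CD4+ cells and 0 higher in KO CD8+ cells, with a median of 1.65 in KO and 1.58 in WT. The share of all genes called higher in CD4+ cells was 10.2%. Without the block by animal, 6 of the follicular helper genes were called. *Cxcr5*, which leads T cells to B cell follicles, was 791, 1401, 1144 and 1600 in KO CD4+ and 95.3, 96.8, 59.4 and 93.8 in KO CD8+ cells, a difference of 3.80 ± 0.21 against 3.75 ± 0.19 in WT. *Il21*, the cytokine of these cells, was 1329, 1231, 5460.1 and 3042 against 217, 82.3, 991 and 472. Animals 3 and 4 had the most *Il21* in both subsets, the groups did not overlap, and the difference was 2.91 ± 0.21. *Maf* differed by 2.58 ± 0.16, *Bcl6*, the factor that defines these cells, by 1.63 ± 0.22 (WT 1.08 ± 0.12), *Tox2* by 1.68 ± 0.27 (WT 0.53 ± 0.14), *P2rx7* by 2.84 ± 0.33 and *Btla* by 1.48 ± 0.20. *Pdcd1* (PD-1), at -0.38 ± 0.14, was not called (limma adjusted p = 0.0913). The genotype by subset interaction passed for 0 of the 14 genes, *Bcl6* and *Tox2* included, and for 1.39% of all genes (limma).

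Genes of the other helper fates were also mainly higher in KO CD4+ cells. Of the Th1 list, 8 of 15 were called higher in CD4+ and 1 higher in CD8+ cells. Over all genes these shares were 10.2% and 8.68%. With the block by animal left out, 2 and 0 of the Th1 list were called. The cytokine genes *Tnf* (1.85 ± 0.18), *Lta* (2.36 ± 0.25), *Il2* (2.81 ± 0.54) and *Csf2* (2.38 ± 0.26) were higher in KO CD4+ cells. *Tnf* was 769, 391.8, 908 and 1364 in KO CD4+ and 139, 114, 339.8 and 407 in KO CD8+ cells. *Ifng*, made by Th1 and cytotoxic cells, was 1836, 4761, 3438 and 3554 against 2014, 2523, 5370.2 and 3927, with a difference of -0.0013 ± 0.20 (95% interval -0.45 to 0.44) that was positive in animal 2 and negative in the others. WT cells had 4647, 5763, 7774 and 7219 in CD4+ and 10544, 10611, 11937 and 11556 in CD8+ cells, a difference of -0.84 ± 0.073, and the interaction did not pass (limma adjusted p = 0.135).

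The Th2 list had 6 of 8 genes called higher in CD4+ cells, including *Ccr4*, *Ccr8* (2.24 ± 0.23), *Il1rl1* (ST2, 1.21 ± 0.19) and *Il13*, which was 1.91, 122, 102 and 57.1 in KO CD4+ and 0, 2.06, 13.5 and 9.47 in KO CD8+ cells. *Il13* was near 0 in both libraries of animal 1. Of the Th17 list, 6 of 10 genes were called, among them *Il1r1* (4.04 ± 0.78), *Ahr* (2.08 ± 0.24), *Tmem176a* (1.53 ± 0.15) and *Tmem176b* (1.97 ± 0.13). The cytokine genes *Il17a*, *Il17f* and *Il22* were below the limit for testing. The share of all genes called higher in CD4+ cells was 10.2%. With the block by animal left out, 2 genes of the Th2 list and 1 of the Th17 list were called higher in CD4+ cells. *Tmem176b* was 2800.1, 852, 1299 and 2504 in KO CD4+ and 562, 219, 301 and 871 in KO CD8+ cells.

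Regulatory T cell genes had the same direction, with 9 of 14 called higher in KO CD4+ and 1 higher in KO CD8+ cells. Over all genes these shares were 10.2% and 8.68%. With the block by animal left out, 4 and 0 of the list were called. *Lrrc32* (GARP), which presents latent TGF-β, was 168, 32.4, 172 and 103 against 17.1, 0, 14.6 and 1.89, a difference of 4.23 ± 0.53. *Ikzf2* (Helios) differed by 1.62 ± 0.16, *Tnfrsf18* (GITR) by 1.19 ± 0.080 and *Il2ra* (CD25) by 0.63 ± 0.16. The gene called higher in CD8+ cells was *Tnfrsf9* (4-1BB), at -0.63 ± 0.086. With 1 animal left out, 4 to 7 of these genes were called higher in CD4+ cells, the fewest without animal 3. *Foxp3* was not analysed here. In the TNF family and costimulation list, 11 of 22 genes were called, all higher in CD4+ cells, and 4 were called without the block. *Tnfsf11* (RANKL) was 858, 364, 1042 and 1028 against 24.6, 15.4, 70.7 and 121, a difference of 4.12 ± 0.30, *Tnfrsf25* (DR3) differed by 2.70 ± 0.31 and *Cd70* by 3.37 ± 0.74.

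**Figure D3:**
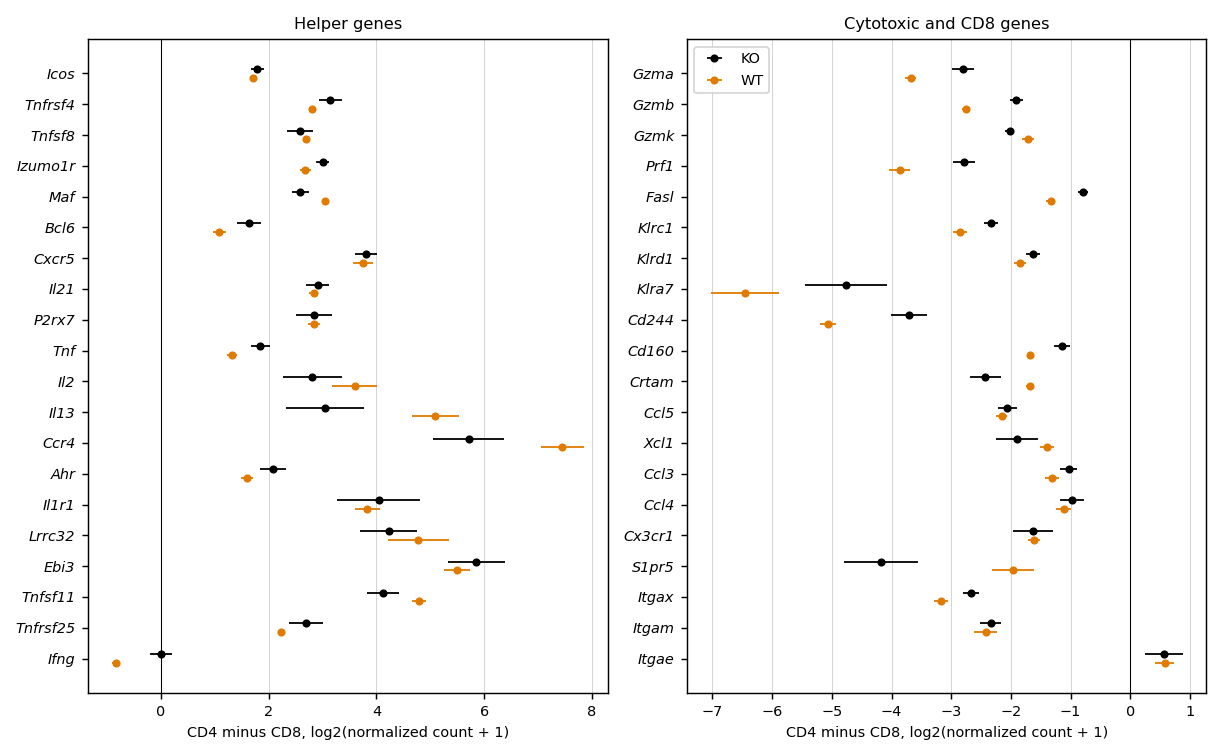
CD4 minus CD8 difference as log2(normalized count + 1) of 20 helper genes (left) and 20 cytotoxic and CD8 genes (right) in KO (black) and WT (orange). Points are the limma estimates over 4 animals and bars the SE. *Ifng* is the helper gene near 0 in KO, while it lies at -0.84 in WT, and *Itgae* is the only gene on the right with a positive difference.

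Cytotoxic genes were higher in KO CD8+ cells. Of 14 CD8 identity genes, 11 were called higher in KO CD8+ and 0 higher in KO CD4+ cells, with a median of -1.76 in KO and -1.54 in WT, and without animal 1 again 11 were called higher in CD8+ cells. The 3 not called were *Cst7* (-0.32 ± 0.13), *Itgae* (0.56 ± 0.32), which encodes CD103, and *Dapl1*. Over all genes, 8.68% were called higher in CD8+ and 10.2% higher in CD4+ cells. With the block by animal left out, 9 of the CD8 identity genes were called higher in CD8+ cells. Of the cytotoxic machinery, 11 of 24 genes were called higher in CD8+ cells and 1 higher in CD4+ cells, *Srgn*, the proteoglycan of the granules, at 0.74 ± 0.063, and without animal 1 the CD8+ count was 8. Without the block the CD8+ count was 5. The 4 genes of granule release (*Unc13d*, *Rab27a*, *Stx11* and *Stxbp2*) lay between -0.041 and 0.15 and none was called by limma (1 of 4 at an unadjusted p under 0.05).

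*Gzma*, which encodes granzyme A, was 49663, 229921, 34225 and 35880 in KO CD8+ and 12326, 36222, 3372 and 3937 in KO CD4+ cells of animals 1 to 4. Animal 2 was highest in both subsets, so that its CD4+ library overlapped the CD8+ libraries of animals 3 and 4, while within every animal the CD8+ library was higher. The difference was -2.80 ± 0.18 in KO and -3.68 ± 0.10 in WT, where CD4+ libraries ranged from 1099 to 1317. The interaction of *Gzma* did not pass (limma adjusted p = 0.114). *Gzmb* was 102721, 270098, 199627 and 139916 in KO CD8+ and 32778, 80806, 38648 and 37996 in KO CD4+ cells, against 13543 to 23463 in WT CD4+ cells. All 4 KO CD4+ libraries exceeded the WT CD4+ libraries, and the *Gzmb* difference was -1.91 ± 0.11 in KO and -2.75 ± 0.074 in WT, a change of 0.84 ± 0.15 (limma interaction, adjusted p = 0.0271). *Prf1* (perforin) was 12558, 25631, 29935 and 20818 against 3287, 2595, 3269.6 and 3200.1, a difference of -2.78 ± 0.19 in KO and -3.87 ± 0.17 in WT, and its interaction did not pass (adjusted p = 0.135). Without animal 1 the differences were -3.07 for *Gzma*, -2.00 for *Gzmb* and -3.07 for *Prf1*. *Gzmk* differed by -2.02 ± 0.068 and *Fasl*, a death ligand, by -0.79 ± 0.087. The factors *Tbx21* (T-bet) and *Prdm1* (Blimp-1) were higher in CD8+ cells, at -0.30 ± 0.068 and -0.27 ± 0.082.

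NK receptors, many of which are also borne by effector CD8+ cells, had the direction of the cytotoxic genes. Of 21 tested, 15 were called higher in KO CD8+ cells and 0 higher in KO CD4+ cells, with a median of -1.15. The partner genes *Klrc1* (NKG2A) and *Klrd1* (CD94) differed by -2.33 ± 0.12 and -1.63 ± 0.12, and *Klrc1* was 12927, 16607, 12903 and 9619 in KO CD8+ and 3618, 3459, 2182 and 1535 in KO CD4+ cells. *Cd244* was 527, 1531, 1201 and 768 against 76.5, 71.7, 51.6 and 85.7. *Klra7*, of the Ly49 family whose near-identical members can share reads, was 152, 469, 43.7 and 17.99 against 22.0, 3.93, 0 and 0, with its highest CD4+ value in animal 1, and differed by -4.76 ± 0.69 with and -5.44 without that animal. *S1pr5*, a receptor for exit from tissue in NK and effector cells, was 368, 209, 43.7 and 39.8 against 88.0, 13.7, 0 and 0, again highest in CD4+ cells of animal 1, and differed by -4.18 ± 0.62 with and -4.89 without that animal. *Zbtb16* (PLZF), a factor of innate-like T cells, was 39.6, 137, 31.4 and 9.47 against 7.65, 8.84, 4.77 and 4.39, and was not called without animal 1. The NK lineage marker *Klrb1c* was 1354, 741, 672 and 3066 in KO CD8+ and 474, 219.9, 401 and 1547 in KO CD4+ cells (-1.25), whereas *Ncr1* was at 0 in 3 of the 4 KO CD8+ libraries. Without animal 1, 13 genes of the list were called higher in CD8+ cells, and 6 were without the block by animal. The share of all genes called higher in CD8+ cells was 8.68%.

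Chemokine genes were called in both directions. *Ccl5* was 66968, 52983, 30674 and 23741 in KO CD8+ and 17752, 7410.4, 8557 and 7538 in KO CD4+ cells, highest among CD4+ libraries in animal 1, with a difference of -2.06 ± 0.16 with and -2.11 without that animal. The inflammatory chemokines *Ccl3* and *Ccl4* differed by -1.03 ± 0.14 and -0.97 ± 0.20, *Xcl1* by -1.90 ± 0.35 and *Cx3cr1* by -1.63 ± 0.34. On the CD4+ side stood *Ccl1* (2.38 ± 0.30), *Cxcl10* (1.44 ± 0.25), *Gpr183*, a guidance receptor for oxysterols (1.49 ± 0.12), the gut-homing receptor *Ccr9* (1.01 ± 0.16) and *Gpr15* (3.75 ± 0.59), which guides cells to the colon. *Ccr9* was 2067, 639, 1873 and 3875 in KO CD4+ and 818, 256, 861 and 3178 in KO CD8+ cells, so that the groups overlapped through animals 2 and 4 while the CD4+ library was higher in each animal. The chemokine list, which leaves out *Ccl5*, *Xcl1* and *Cx3cr1*, had 5 of 17 genes called higher in CD4+ and 3 higher in CD8+ cells. Over all genes these shares were 10.2% and 8.68%. With the block left out, the list had 1 gene called in each direction.

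Adhesion genes split between the lineages. Of 19 tested, 4 were called higher in KO CD4+ and 7 higher in KO CD8+ cells. Over all genes these shares were 10.2% and 8.68%. With the block by animal left out, 2 and 5 of the list were called. The β2-integrin partners *Itgax* (CD11c) and *Itgam* (CD11b), carried by activated CD8+ cells as well as by myeloid cells, were higher in CD8+ cells, at -2.67 ± 0.13 and -2.34 ± 0.17. *Itgax* was 8300.5, 11587, 4624 and 4515 against 1964, 1630, 606 and 637. The myeloid markers *Csf1r* and *Lyz2* were not called between the KO subsets (-0.061 and -0.29). Of 14 myeloid markers, 2 were called, *Itgam* itself and *Cd68* (-1.50), where 18.9% of all genes were. *Itgb1* was higher in CD4+ cells by 0.93 ± 0.091 and *Itga4*, its partner in VLA-4, higher in CD8+ cells, at -0.81 ± 0.076. The enzymes *Gcnt1* and *St3gal6*, which build selectin ligands, were higher in CD8+ cells, at -1.37 ± 0.22 and -0.90 ± 0.081.

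Genes of memory and recirculation went both ways. In KO, 5 of 16 were called higher in CD4+ and 2 higher in CD8+ cells, and in WT 11 and 2, with 0 of 16 interactions passing (limma). Over all genes the KO shares were 10.2% and 8.68%, and 48.8% were called in WT. With the block by animal left out, the KO counts of the list were 3 and 1. *Il7r*, the receptor chain for the survival cytokine IL-7, was 22548, 9793, 13825 and 21746 in KO CD4+ and 10669, 3263, 2701 and 7920.4 in KO CD8+ cells, a difference of 1.62 ± 0.16 in KO and 2.08 ± 0.053 in WT. *Ccr7* differed by 2.26 ± 0.18 and *Id3* by 2.83 ± 0.23. *Cd27* and *Ly6c2* were higher in CD8+ cells, at -0.52 ± 0.11 and -1.18 ± 0.10.

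Of the inhibitory receptors linked to exhaustion, *Havcr2* (TIM-3) and *Lag3* were higher in KO CD8+ cells. *Havcr2* was 4539, 8899, 12693 and 8788 against 2129, 3556, 5148 and 3637, a difference of -1.25 ± 0.063 in KO and -1.78 ± 0.087 in WT, and *Lag3* differed by -1.095 ± 0.21 (WT -1.52 ± 0.084). Neither interaction passed (limma adjusted p = 0.0729 and 0.512). *Tigit* was higher in CD4+ cells by 0.36 ± 0.077. Among the orphan receptors induced by antigen signals, *Nr4a1* was higher in KO CD4+ cells by 1.12 ± 0.11 and *Nr4a2* higher in KO CD8+ cells, at -1.97 ± 0.20, while *Nr4a3* was not called (0.25). Of 12 genes of the exhaustion list, 4 were called higher in CD4+ and 3 higher in CD8+ cells, against 10.2% and 8.68% of all genes. With the block by animal left out, 0 genes of this list were called. The antiviral membrane proteins *Ifitm2* and *Ifitm3* were higher in CD4+ cells. *Ifitm2* was 4795, 8695, 4196 and 4579 in KO CD4+ and 625, 1887, 846 and 1018 in KO CD8+ cells, a difference of 2.405 ± 0.12 (WT 2.57 ± 0.12), and *Ifitm3* differed by 1.60 ± 0.14 (WT 2.32 ± 0.14). The interaction passed for neither *Ifitm2* nor *Ifitm3* (limma adjusted p = 0.788 and 0.187). *Pik3r1* of the PI3K pathway and *Nfat5* were not called, with limma adjusted p = 0.0565 and 0.279 and 95% intervals of -0.36 to -0.060 and -0.44 to 0.060.

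Cytokine receptors split as 7 called higher in CD4+ and 1 higher in CD8+ cells of 16, led by *Il9r* (3.14 ± 0.64), *Il1r2*, a decoy for IL-1 (2.63 ± 0.40), and *Tgfbr3* (1.90 ± 0.21). The one higher in CD8+ cells was *Il10rb* (-0.42 ± 0.083). Over all genes, 10.2% were called higher in CD4+ and 8.68% higher in CD8+ cells. With the block by animal left out, 1 and 0 of the cytokine receptors were called. Of 31 genes of T cell receptor signalling, 11 were called higher in CD4+ and 3 higher in CD8+ cells, and without the block 1 and 2 were. The early response genes *Egr1*, *Egr2* and *Egr3* were higher in CD4+ cells by 1.16 ± 0.12, 1.77 ± 0.31 and 1.74 ± 0.24, and the brakes *Ubash3b* and *Spry2* higher in CD8+ cells, at -1.56 ± 0.15 and -2.38 ± 0.34.

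Cell cycle genes were higher in KO CD8+ cells. Of 25 tested, 17 were called higher in KO CD8+ and 0 higher in KO CD4+ cells, with a median of -0.45 in KO and -0.45 in WT, and every estimate was negative, between -0.62 and -0.15. The replication genes *Mcm5* and *Mcm7* differed by -0.49 ± 0.069 and -0.51 ± 0.088, and *Ccnb2* of mitosis by -0.54 ± 0.13. *Mki67* was 19132, 49689, 28859 and 20280.1 in KO CD4+ and 20095, 52393, 46374 and 42031 in KO CD8+ cells and was not called (-0.47 ± 0.15, limma adjusted p = 0.0560). Without the block by animal 0 of these 25 genes were called, and with 1 animal left out the count was 8 to 21, the highest without animal 1. Among genes of DNA methylation, the maintenance methyltransferase *Dnmt1* and its partner *Uhrf1* were higher in KO CD8+ cells, at -0.39 ± 0.069 and -0.52 ± 0.10, and the other 8 tested, *Dnmt3b* and the *Tet* genes included, were not called. In glycolysis, *Pfkl* was higher in CD4+ cells (0.45 ± 0.064) and *Pfkp*, another phosphofructokinase, higher in CD8+ cells (-0.41 ± 0.055), while 13 of 15 genes were not called. Over all genes tested, 18.9% were called. Without the block by animal, 0 genes of DNA methylation or glycolysis were called.

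**Figure D4:**
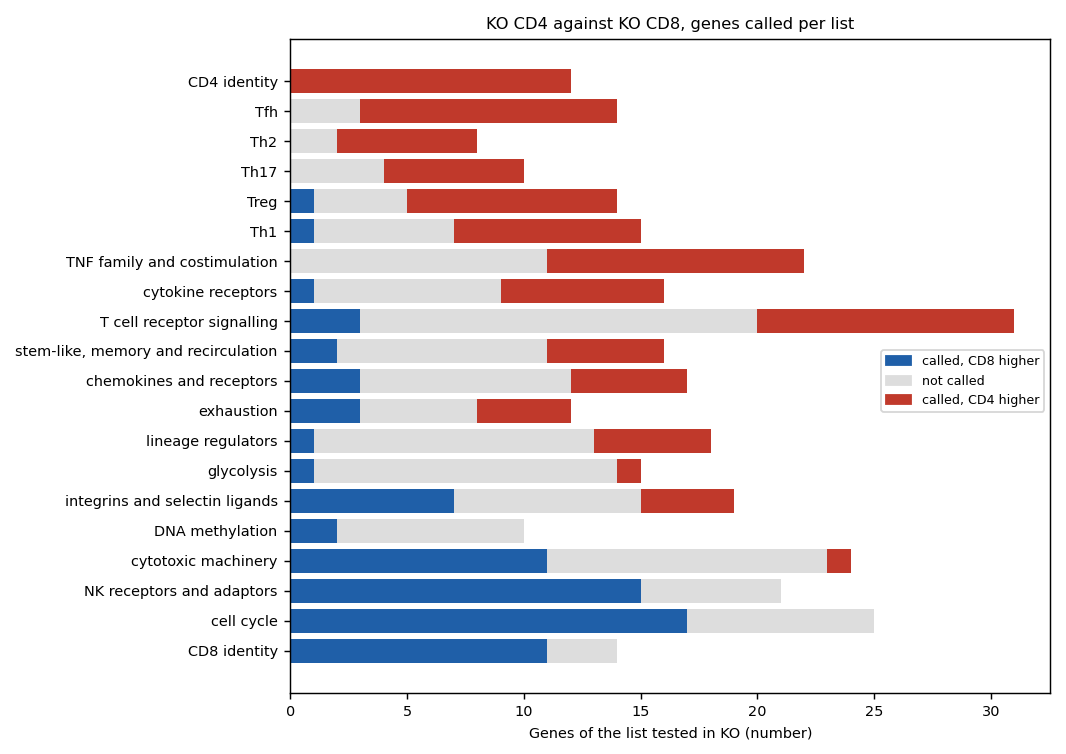
Number of genes tested per list (horizontal axis) that were called higher in KO CD8+ cells (blue), not called (grey) or called higher in KO CD4+ cells (red) by limma. All 12 CD4 identity genes are red, and 17 of 25 cell cycle genes are blue with none red.

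Whether a subset difference itself changed with the genotype was tested by the genotype by subset interaction. Of 12446 genes, 173 passed (1.39%), 83 upward and 90 downward, and 1897 had an unadjusted p under 0.05. The 4 KO and 4 WT differences did not overlap for 1080 genes (8.68%). Of the 173, 145 (83.8%) had the smaller difference in KO, against 59.8% of all genes tested. By sign, 95 had the same sign and a smaller difference in KO, and 8 the same sign and a larger one. The other 70 had opposite signs, some with a smaller and some with a larger difference in KO. The count was 2 without the block, 8 to 268 when 1 animal was left out (8 to 12 without KO animal 4 or WT animal 2, 5 or 6, and 268 without KO animal 3), 2 without the mean-variance trend and 508 with DESeq2 on whole reads. The genes named here are those with the lowest adjusted p in each direction and a mean of at least 50.

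Among genes higher in CD4+ cells of WT, *Dnajc6* (auxilin, which uncoats clathrin vesicles) was 417, 743, 769.6 and 909 in KO CD4+ and 238, 645, 508 and 489.6 in KO CD8+ cells. WT had 293, 304, 273 and 253 in CD4+ and 33.1, 46.1, 49.4 and 24.1 in CD8+ cells, so that every KO library lay above the WT libraries of its subset, and the difference was 2.89 ± 0.21 in WT and 0.63 ± 0.14 in KO. *Fam101b* differed by 2.14 ± 0.13 in KO and 3.55 ± 0.10 in WT, and its KO CD8+ libraries (327, 134, 256 and 733), except that of animal 2, exceeded the WT CD8+ libraries (101 to 166). *Dclk1*, a kinase, differed by 1.55 ± 0.21 in KO and 3.55 ± 0.076 in WT, with low KO CD4+ levels in animals 1 and 2 (263, 289.7, 2578 and 1283). *Odc1*, the entry enzyme of polyamine synthesis, was 8672, 10282, 17279.8 and 12636 in KO CD4+ cells against 24918 to 26344 in WT CD4+ cells, and its difference was 0.71 ± 0.074 in KO and 1.34 ± 0.043 in WT. *Nr3c1*, the glucocorticoid receptor, was 3464, 3371, 4239 and 3446 in KO CD4+ and 3185, 3872, 2881 and 3194 in KO CD8+ cells, a difference of 0.15 ± 0.11 in KO against 0.99 ± 0.049 in WT.

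*Lnpep*, an aminopeptidase, was called in opposite directions, at -0.36 ± 0.068 in KO and 0.50 ± 0.063 in WT. The tetraspanin *Cd82* differed by 0.77 ± 0.057 and 1.22 ± 0.043, and *Elk4* and *Mfsd4* by -0.10 and -0.0094 in KO against 0.85 and 0.89 in WT. Among genes higher in CD8+ cells of WT, *Cerk* (ceramide kinase) differed by -0.86 ± 0.080 in KO and -1.84 ± 0.082 in WT, and *Haao*, an enzyme of tryptophan breakdown, was 758, 491, 338 and 374 in KO CD4+ cells against 69.1 to 157 in WT CD4+ cells, with differences of -1.39 ± 0.11 and -2.89 ± 0.15. *Slc1a5*, a glutamine transporter, was 0.034 ± 0.060 in KO and -0.65 ± 0.047 in WT. The transporter *Abcb9* and *9030025P20Rik* also had smaller negative values in KO (-0.74 and -0.20) than in WT (-1.43 and -0.68). *Dtx3*, *Pkp4*, *Tbxa2r* and *Tmem259* lay between -0.91 and -0.38 in WT and between -0.15 and 0.37 in KO, and none of the 4 was called in KO. *Fam189b* was called in KO and not in WT (0.51 ± 0.065, WT -0.020 ± 0.055).

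**Figure D5:**
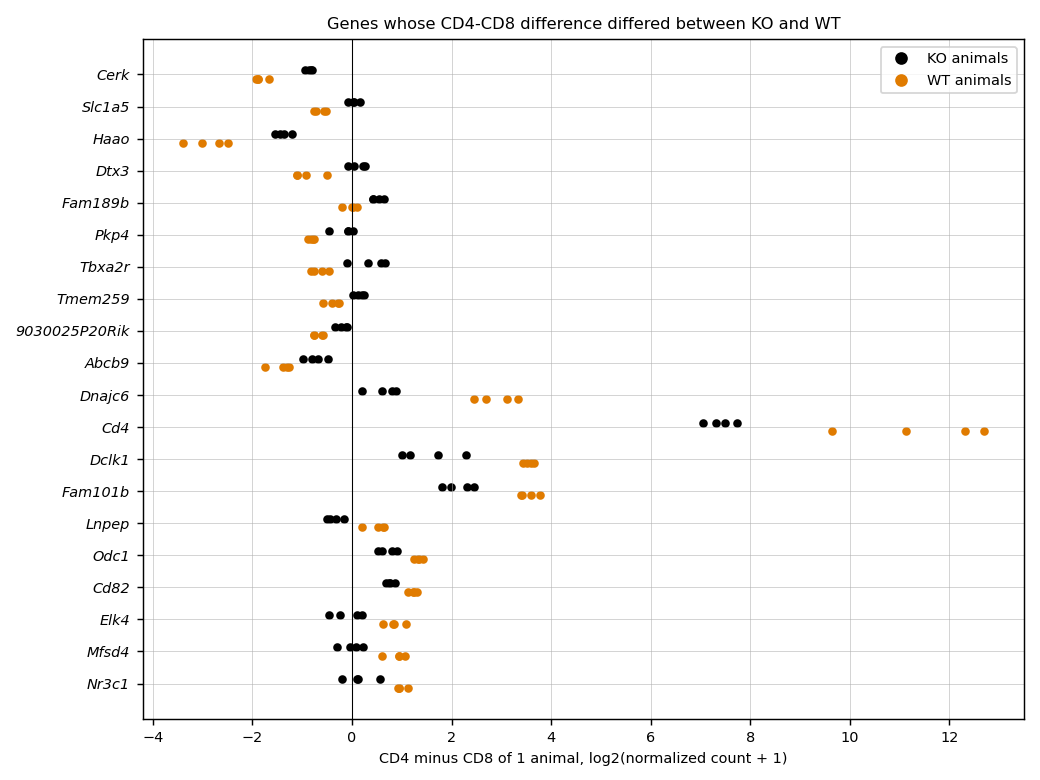
CD4 minus CD8 difference of each animal, as log2(normalized count + 1), for the 20 named interaction genes, with KO animals in black and WT animals in orange. For every gene shown the 4 KO animals and the 4 WT animals do not overlap. The genes were chosen by the interaction of these same differences, so the lack of overlap largely follows from the choice and is no separate support. Over all genes tested, 8.68% had no overlap.

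Of 376 genes of the lists tested for the interaction, 11 were among the 173 (2.93%, against 1.39% of all genes). Besides *Cd4*, they were *Gzmb*, *Ctsw* (0.46 ± 0.10), *Nr4a1* (0.62 ± 0.12), *Gfi1* (0.45 ± 0.10), *Il2rb* (0.43 ± 0.10), *Cd6* (-0.51 ± 0.089), *Cd247* (-0.30 ± 0.060), *Itga4* (-0.48 ± 0.10), *Itgb1* (-0.63 ± 0.13) and *Itgb5* (0.89 ± 0.20), each value being the KO minus the WT difference. Of the 18 alternatives, *Cd4* passed in 17, *Cd6* in 11, *Gzmb* and *Nr4a1* in 10, *Il2rb*, *Itga4* and *Itgb1* in 7, *Cd247* in 6, *Ctsw* and *Gfi1* in 5 and *Itgb5* in 4. *Il2rb*, the receptor chain for IL-2 and IL-15, was 0.074 ± 0.083 in KO and -0.36 ± 0.045 in WT, and *Gfi1* -0.0074 ± 0.075 and -0.46 ± 0.066. *Itgb1* was higher in CD4+ cells of both genotypes, by 0.93 in KO and 1.56 in WT, whereas *Itga4* was further below 0 in KO (-0.81) than in WT (-0.33).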

How the data were processed

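Bulk RNA from sorted splenic T cells was sequenced, 1 library per animal and subset. The files held normalized counts per gene as made by the authors, reads on UCSC mm10 gene exons divided by DESeq2 size factors, a depth-scaled signal with no further transformation. The submitters' processing notes name STAR 2.7.2b for alignment. Per the study's methods, libraries were strand-specific and reads were counted with strand taken into account. Division by the smallest step of each library gave whole reads for 100% of values (within 0.001), and the depth of each library comes from those reads. Samples were grouped by their labels.

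Genes that averaged 10 or more normalized counts in the libraries of a comparison were kept. log2(normalized count + 1) was fitted with limma 3.58.1 (R 4.3.3, empirical Bayes with a mean-variance trend, Benjamini-Hochberg adjustment over all genes kept), with the animal number as a block. KO CD4+ was set against KO CD8+, WT CD4+ against WT CD8+, and the genotype by subset interaction was tested over all 16 libraries. Fold changes on this scale understate those of low genes. On the recovered reads, edgeR 4.0.16 called 2204 genes between the KO subsets and DESeq2 1.42.0 called 2769. The numbers pair libraries of the same animal in the labels, and deviations from the group means correlated at 0.448 to 0.531 for equal and -0.366 to 0.111 for unequal numbers in KO, and at 0.111 to 0.210 and -0.133 to 0.0154 in WT. No replicates were near-identical, as every pair in a group had a chi-square of 11.1 or more per degree of freedom.

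The text names the 10 genes with the largest differences in each direction in KO and in WT, among called genes that averaged 50 or more and did not overlap, up to 10 interaction genes in each direction, members of the gene lists, genes the study discussed and *Dnmt3a*. A few genes named by this rule are not reported here. Members and lists were chosen with earlier results of these data known. Positions and upstream windows are from RefSeq GRCm38.p6, which matched 12160 of 12189 genes. The libraries of KO CD4+CD8+ cells entered 1 alternative fit only.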

Additional observations from a re-analysis of the deposited data

Results flagged for a closer look

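Single libraries stood far from the other 3 of their group, relative to the range of the 4, in 6 of 112 groups examined, where chance gives about 1 in 20. *Ccl5* was 17752 in the CD4+ library of KO animal 1 against 7410.4 to 8557 in the others. *Tnfsf8* was 157 in the CD8+ library of KO animal 2 against 828 to 1055, and *Ccr4* was listed at 0 there against 8.52 to 12.8. *Plcb4* was 235 in the CD4+ library of KO animal 3 against 119 to 130. In animal 4, *Cd8b1* was 35472 in the CD8+ library against 44901 to 46606, and *Dnmt3a* 1385 in the CD4+ library against 1628 to 1658.

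The CD4 minus CD8 difference differed between KO and WT (limma interaction across all genes, with at most 4 animals per genotype) for 31 of the genes examined, given here as KO minus WT on the log2 scale. The largest shifts downward were those of *Cd4* (-4.05), *Dnajc6* (-2.27), *Dclk1* (-2.01) and *Fam101b* (-1.41). Further downward shifts were *Elk4* (-0.95), *Mfsd4* (-0.90), *Lnpep* (-0.85), *Nr3c1* (-0.84), *Odc1* (-0.63), *Itgb1* (-0.63), *Cd6* (-0.51), *Itga4* (-0.48), *Cd82* (-0.46) and *Cd247* (-0.30). Upward shifts of genes named by their adjusted p were *Haao* (1.51), *Tbxa2r* (1.03), *Dtx3* (1.02), *Cerk* (0.98), *Abcb9* (0.69), *Slc1a5* (0.68), *Pkp4* (0.67), *Fam189b* (0.53), *Tmem259* (0.53) and *9030025P20Rik* (0.48). Upward shifts of genes of the lists were *Itgb5* (0.89), *Gzmb* (0.84), *Nr4a1* (0.62), *Ctsw* (0.46), *Gfi1* (0.45) and *Il2rb* (0.43), and *Padi4*, chosen after its values were seen, shifted by 3.88. A downward shift of a gene higher in CD4+ cells and an upward shift of a gene higher in CD8+ cells both mean a smaller subset difference in KO.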

How the results depend on the processing

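The KO count of 2305 genes stayed within 1.5 times under another pseudocount, other filters, both rescalings, edgeR, DESeq2 and a fit of all 20 libraries (2115 to 2769). It was 1093 without the mean-variance trend and 1446 to 1995 with 1 animal left out. Without the replicate block, which ignores the pairing by animal, it was 514, all among the 2305, and the share of these calls higher in CD4+ cells was 64.8% against 54.1%. Of 220 listed or named genes called in KO, 92 were called without the block, 142 without the trend and 182 to 202 with 1 animal left out, and 0 reversed. The WT count was 3172 with all 20 libraries. The interaction count of 173 was 77 without a filter, 2 without the trend, 508 by DESeq2, 2 without the block, 9 with all 20 libraries and 8 to 268 with 1 animal left out. The cause was not tested. Leaving out an animal uses fewer libraries, and without KO animal 3 the interaction count was 268, above 173. Leaving out the block cannot change the sign of an estimate in these balanced pairs.

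Signs reversed only for genes near 0. The difference of *Ifng* was 0.0048 under quantile normalization and -0.31 to 0.21 with 1 animal left out. Over the same omissions *Dnmt3a* ran from -0.14 to 0.063, *Elk4* from -0.20 to 0.022, *Gfi1* from -0.037 to 0.018, *Il2rb* from -0.027 to 0.13, *Mfsd4* from -0.087 to 0.090 and *Slc1a5* from -0.010 to 0.071. The share of WT calls with the same sign in KO was 87.0% to 92.0% and the median ratio 0.737 to 0.815 over their alternatives, some of them chosen after seeing the data. With 4 animals per genotype and wider spread in KO, a gene that missed the threshold in KO is not shown to lack a difference, and low genes such as *Calcb* have folds set by few reads.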

Other observations

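*Padi4*, which encodes a peptidylarginine deiminase that converts arginine to citrulline, was chosen after its values were seen. It was 57.4, 53.0, 102 and 62.6 in KO CD4+ and 0, 0, 4.49 and 0 in KO CD8+ cells of animals 1 to 4, and 29.0, 63.3, 94.2 and 90.1 in WT CD4+ and 18.3, 22.1, 20.7 and 20.4 in WT CD8+ cells. The 2 subsets did not overlap in either genotype. The KO CD8+ libraries lay below every WT CD8+ library, 3 of them at 0, while the KO and WT CD4+ libraries overlapped. Summed neutrophil markers were 1856 to 4435 in WT CD8+ and 12.4 to 2765 in KO CD8+ libraries. In CD4+ libraries these sums were 2307 to 3549 in WT and 5.89 to 4275 in KO. Whether other cells add to the *Padi4* counts was not tested. The subset difference was 5.46 ± 0.67 in KO and 1.58 ± 0.35 in WT (limma interaction, adjusted p = 0.0254), and it is a larger difference in KO, unlike that of *Cd4*. Over the 17 alternatives that gave a value the interaction of *Padi4* passed in 9.

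Among chemokine ligands, *Ccl9* was 40.7, 62.8, 53.8 and 44.5 in KO CD8+ and 13.4, 16.7, 13.4 and 6.59 in KO CD4+ cells, a difference of -1.98 ± 0.44. Of the nuclear factors that respond to calcium signals, *Nfatc1* and *Nfatc2* were both higher in KO CD4+ cells, by 0.33 ± 0.082 and 0.34 ± 0.057. Receptors for TGF-β had the same direction, with 0.41 for *Tgfbr1* and 0.42 for *Tgfbr2*. The hyaluronan receptor *Cd44*, a marker of antigen-experienced T cells, was 12803, 10706, 14327 and 12683 in KO CD4+ and 8810.1, 9702, 8917 and 8628 in KO CD8+ cells, a difference of 0.48 ± 0.085.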
